A study of Zea mays with 12 samples.

Results

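Cytosolic ribosomal protein genes were followed through the degeneration of the maize persistent synergid cell. Members were the protein-coding rows whose gene description names a 60S, 60S acidic or 40S ribosomal protein, selected on a mean level of at least 1 FPKM in synergid cells before pollination. FPKM is the number of fragments scaled by the length of the gene model and by sequencing depth. Of 45246 rows in the gene table, 39034 were protein coding, 423 carried such a description and 273 reached the level. By description, 261 of the 273 were structural ribosomal proteins (141 of the large subunit, 10 of the acidic stalk and 110 of the small subunit) and 12 were other proteins, such as the export adaptor NMD3, L18a-like proteins and mitochondrial L2 and L5. All values below are for the 261 unless stated, and they fell into 78 proteins by name.

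The study isolated synergid cells by hand from the inbred line B73 and sequenced RNA from pooled cells, 25 to 28 per library. SC were synergid cells before pollination (0 h), and pSC12, pSC18 and pSC24 were persistent synergid cells, the sister cell that survives pollen tube entry, at 12, 18 and 24 h after pollination. All 4 groups share the B73 genotype, with no transgene or mutation named, and only the 3 later ones were pollinated. Each stage had 3 libraries given as biological replicates of pooled cells, so p-values measure only the spread between these 12 libraries.

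The cytosolic ribosome is built from a large 60S and a small 40S subunit, each a scaffold of ribosomal RNA covered with many small proteins that are, for most of them, needed in equal number. In plants nearly every ribosomal protein is encoded by several genes, and these paralogues can differ in when and where they are used. The acidic proteins P0, P1, P2 and the plant-specific P3 form a flexible stalk on the large subunit that recruits elongation factors during translation.

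Library totals on genes were 18369408 to 20046467 counts in SC, 25959879 to 26539602 in pSC12, 15435736 to 20834163 in pSC18 and 20319633 to 25897204 in pSC24, of which 159224 to 313757 counts per library lay on the 261 genes. Synergid identity was checked on ZmES4 (Zm00001eb393820), which encodes a secreted peptide of the embryo sac and stood at 6018 to 13051 FPKM in the 12 libraries, and on the transcription factor gene MYB98 (Zm00001eb212880), which ranged from 1048 to 1205 FPKM in SC and from 55.2 to 179 in pSC24. In bulk samples such as these, fewer cells of a type and less RNA per cell cannot be told apart. Reads of near-identical paralogues may also be shared between them, since how such reads were counted is not given in the sources used here.

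Replicate 3 of pSC18 stood apart before any test. It held the highest value of the 12 libraries for 111 of the 261 genes (42.5%), against 8.86% of all rows with at least 1 FPKM in SC. Its share was 47.5% of large subunit genes (67), 34.5% of small subunit genes (38) and 6 of the 10 stalk genes. Relative to the other 2 pSC18 libraries, 236 of the 261 genes were higher in it, with a median difference of 0.28 on the log2(FPKM + 1) scale.

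Markers of other cells were also high in that library. The egg cell and early embryo list summed to 751 FPKM there, against 318 and 260 in the other pSC18 libraries, 188 to 293 in pSC12 and pSC24, and 427 to 691 in SC, and 13 of its 65 genes peaked in this library (34 of the 65 reached 1 FPKM anywhere, 23 were at 0 everywhere). PCNA (Zm00001eb192050), the sliding clamp of DNA replication, was at 79.8 FPKM there and at no more than 9.56 elsewhere. The list of dividing cells (histones, A- and B-type cyclins, PCNA) summed to 2217 FPKM, against 933 and 1116 in the other pSC18 libraries and 1585 to 2044 in SC, and 39 of its 136 genes peaked there. The synergid list was the lowest of its stage there (8914, against 9141 and 10899 FPKM), and the lists of pollen tube (191, against 197 and 187 FPKM) and endosperm (78.9, against 70.1 and 73.8 FPKM) were close to the other pSC18 libraries. The part of these markers in the ribosomal protein values was not tested. The main edgeR calls of members and their median log2 fold change are given with and without this library. Class medians, counts of genes above 0 or at an unadjusted p, DESeq2 calls and the lists of related genes are given only with it.

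**Figure D1:**
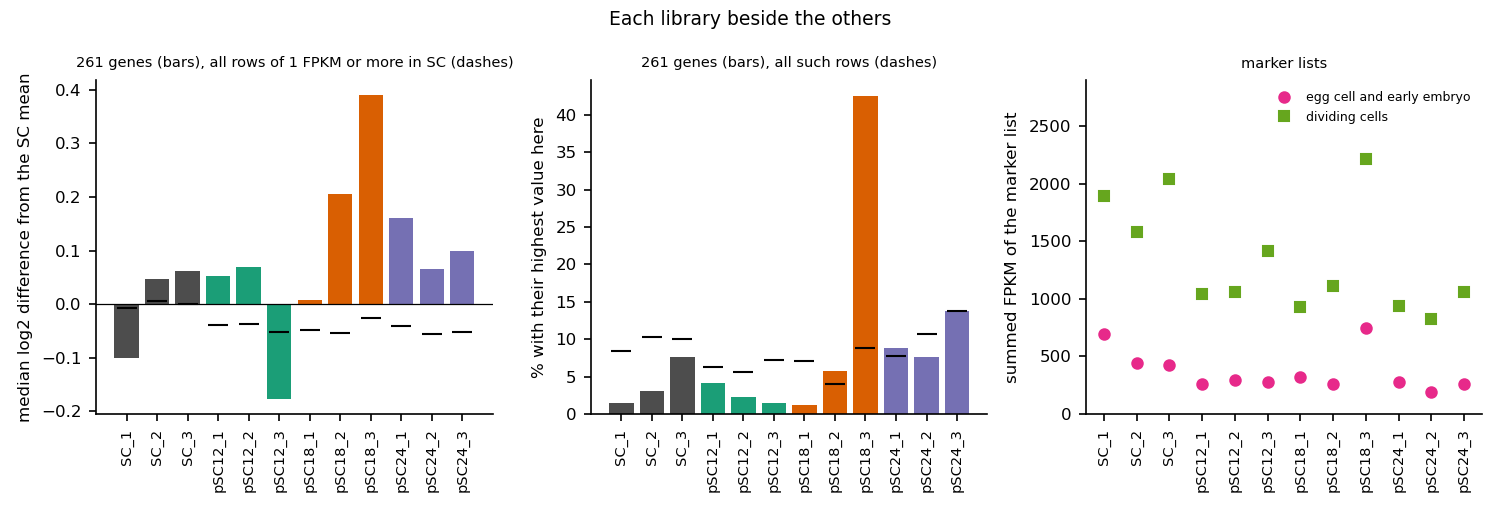
Each library beside the others. Left, median log2(FPKM + 1) difference of the 261 genes from the SC mean (bars) and of all rows with at least 1 FPKM in SC (dashes). Middle, percent of genes whose highest value of the 12 libraries lies in that library. Right, summed FPKM of 2 marker lists. Replicate 3 of pSC18 is highest in all 3 panels, with 42.5% of the 261 genes at their highest there.

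The median level of the genes was similar at every stage, while single genes ran from 1.1 to 196 FPKM in SC. The median gene stood at 23.6, 23.5, 26.9 and 26.1 FPKM from SC to pSC24 in stage order. In SC, 207 of the 261 were at 10 FPKM or more and 14 at 100 or more. In pSC24, 22 were at 100 FPKM or more. The order of the genes was close to that of SC at each stage, with a Spearman rho over the 261 genes of 0.98 for pSC12, 0.975 for pSC18 and 0.959 for pSC24, as a description over genes that share libraries.

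Summed over the 261 genes, the level in SC was 8830 ± 546 FPKM (SD, n = 3) and that in pSC12 8784 ± 882. Later it was 10122 ± 1312 FPKM in pSC18 and 9751 ± 161 in pSC24. The 3 pSC18 libraries gave 8890, 9974 and 11501 FPKM, so replicate 3 set both the mean and the spread of that stage. As a share of counts on genes, the set took 0.897%, 1.12%, 1.21% and 1.16% at the 4 stages in order. The 2 measures differ in scaling: FPKM here rests on size factors, and the share on library totals. Only FPKM is also divided by gene length. With library totals in place of TMM scaling, the all-gene median against SC moved to 0.27 (pSC12), 0.25 (pSC18) and 0.28 (pSC24) on the log2 scale.

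The sums of the subunits kept a near constant ratio. Large subunit genes summed to 4887 ± 312 FPKM in SC and small subunit genes to 3495 ± 188. The ratio of large subunit and stalk to small subunit was 1.53, 1.48, 1.54 and 1.60 at the stages in order. The 3 pSC24 libraries (1.59 to 1.62) were above the other 9 libraries (1.45 to 1.58). The stalk summed to 449 ± 46.8 FPKM in SC and 383 ± 45.7 in pSC12, with overlapping libraries.

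**Figure D2:**
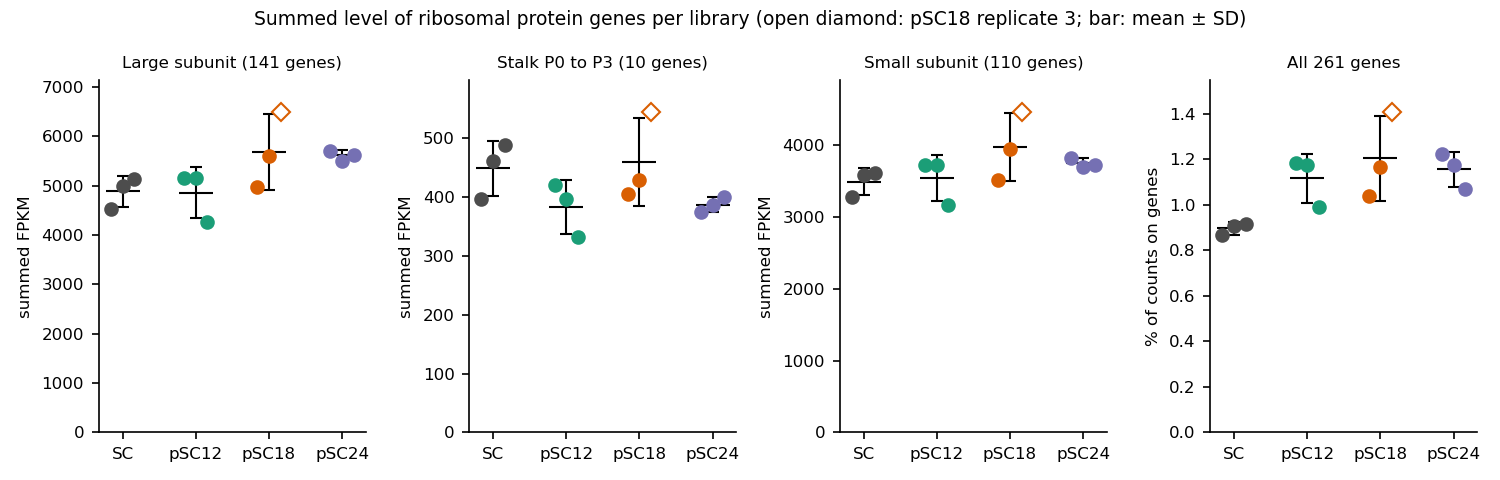
Summed FPKM of large subunit, stalk and small subunit genes per library, and the percent of counts on genes taken by all 261. Points are libraries, bars the mean ± SD of 3 libraries, and the open diamond is replicate 3 of pSC18. The whole set lies between 8209 and 9236 FPKM in SC and between 9589 and 9910 in pSC24.

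The highest members in SC came from both subunits. The stalk base protein P0 gene Zm00001eb261840 led with 196 ± 14.4 FPKM, at rank 258 of all rows. It was followed by L31 (Zm00001eb252830, 161 ± 22 FPKM), a protein at the rim of the exit tunnel, and L35a (Zm00001eb310700, 160 ± 14.9), a large subunit protein. S2 (Zm00001eb212470, 150 ± 15.3 FPKM), at the entry of the mRNA channel, and L17 (Zm00001eb036530, 143 ± 7.0), near the tunnel exit, came next. From L31 down, neighbours in this order overlapped between libraries, and P0 (lowest library 186.4 FPKM) was just above the highest L31 library (186.0). At the other end, the members just inside the level were S4 Zm00001eb180860 (1.1 FPKM), an L18a-like gene (1.25) and L38 Zm00001eb037310 (1.39), and the rows just outside were L12 Zm00001eb084920 (0.892), S9 Zm00001eb018470 (0.834) and L29 Zm00001eb340270 (0.825). Of the 150 rows outside, 85 had no count in any library, 10 were tested and 5 reached a mean of 1 FPKM at a later stage.

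Which members changed between the stages after fertilization was tested with edgeR in 1 fit over 12 libraries and 21143 genes, with Benjamini-Hochberg adjustment over all genes within each comparison. A gene is said to have risen or fallen where its adjusted p was under 0.05. The selection did not use these comparisons. Of the 261 genes 260 were tested, the exception being S4 Zm00001eb180860.

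From pSC12 to pSC18 no ribosomal protein gene passed, and few genes of any kind did (0.0189% of all genes tested higher, 0.00946% lower). At an unadjusted p under 0.05, 33 of the 260 were higher (12.7%, against 7.91% of all genes) and 4 lower (1.54%, against 4.73%). With DESeq2, which called 2.27% of all genes higher and 0.864% lower, 3 of the 261 were higher, S2 Zm00001eb303080, L35a Zm00001eb310700 and L32 Zm00001eb174930, and 1 was lower, S10 Zm00001eb174410. These 4 were named after their values were seen. The median log2 fold change of the 260 was 0.23, against 0.03 over all genes, and 225 of the 260 were above 0, against 52.5% of all genes. The medians were 0.23 for the large subunit, 0.26 for the stalk and 0.21 for the small subunit. Without replicate 3 of pSC18 the median of the 260 was 0.12.

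From pSC18 to pSC24, 3 of the 260 genes rose (against 7.01% of all genes) and 12 fell (4.62%, against 7.15%). Those that rose were L10 Zm00001eb219490, S20 Zm00001eb378000 and L24 Zm00001eb352180. Of those that fell, 7 were small subunit genes (of the proteins S2, S5, S10 and SA), 3 were large subunit genes (L4 and L5) and 2 were the P0 genes of the stalk. These were 6.42% of the small subunit genes, 2.13% of the large subunit genes and 20% of the stalk genes. None of the 260 both passed the test and changed by more than 2-fold, which 4.82% of all genes did higher and 3.26% lower. The median was -0.08, against -0.01 over all genes.

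These calls depended on single libraries. Without replicate 3 of pSC18, 6 of the 15 calls were made (2 higher and 4 lower, 2.31% of the 260, against 10.2% of all genes in either direction) and the median turned to 0.02. Those 6 were L10 Zm00001eb219490, S20 Zm00001eb378000, S2 Zm00001eb212470, S5 Zm00001eb334050, S10 Zm00001eb140330 and SA Zm00001eb002640. The other 9 kept their direction without that library. Of these, L24 Zm00001eb352180 had a larger change without it (0.50 ± 0.15, adjusted p = 0.0552), while the leading P0 gene Zm00001eb261840 had a smaller one (-0.36 ± 0.13, adjusted p = 0.0986), as had L5 Zm00001eb002520 (-0.48 ± 0.18, adjusted p = 0.122). Each of these 9 calls was also lost without at least 1 other library. The number that fell was also 5 to 7 without SC replicate 2 or 3, pSC18 replicate 1 or 2, or pSC24 replicate 2 or 3, and the number that rose was 1 without pSC18 replicate 1 or pSC24 replicate 3. These counts without other libraries have no all-gene share beside them. By the study's library statistics the pSC12 libraries and pSC24 replicates 2 and 3 had a higher mapped share than the rest, and with that set as a term, which only pSC24 can estimate, no member passed edgeR's adjusted test (against 4.64% of all genes), while 3 were higher and 12 lower at an unadjusted p under 0.05.

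From pSC12 to pSC24, 26 genes rose (10% of the 260, against 12.1% of all genes) and 10 fell (3.85%, against 10.5%). The genes that rose were 15 of the large subunit (10.6% of its genes), 10 of the small subunit (9.17%) and 1 of the stalk (10%). The genes that fell were 2 of the large (1.42%) and 8 of the small subunit (7.34%). Of these 10, 3 changed by more than 2-fold (S10 Zm00001eb140330, S4 Zm00001eb310790 and S4 Zm00001eb302860), as did 1 that rose (L10 Zm00001eb219490). Over all genes 8.68% rose and 5.55% fell past that limit. The median log2 fold change was 0.11, against 0.02 over all genes, and by class 0.15 for the large subunit, 0.10 for the stalk and 0.07 for the small subunit. Counted over all 273 rows, 28 rose and 11 fell.

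Here too libraries mattered: the number that rose was 14 without pSC12 replicate 1 or 3 and 15 without pSC24 replicate 2, and the number that fell was 6 without pSC12 replicate 1. These counts have no all-gene share beside them. With the mapped-share term 22 rose and 9 fell (11.9% of the 260, against 20.2% of all genes), 28 of them among the 36. The comparisons from pSC12 and from pSC18 share the pSC24 libraries, so their calls are not independent.

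**Figure D3:**
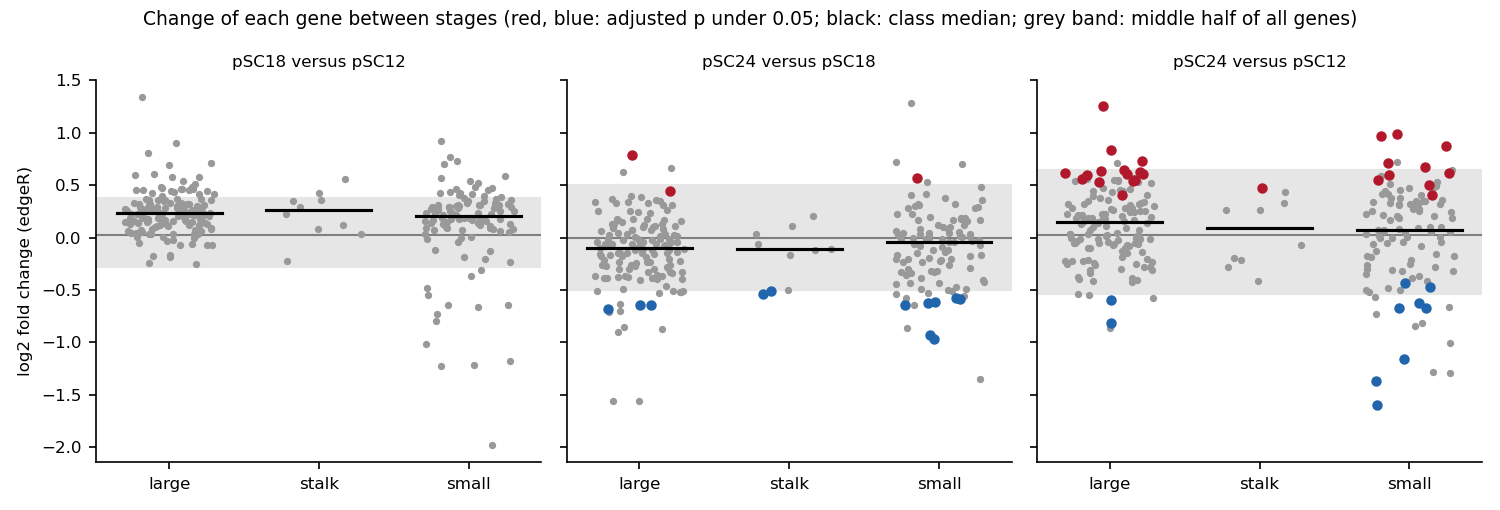
Log2 fold change of each of the 260 tested genes between stages, by class. Red and blue points passed an adjusted p under 0.05 (higher and lower), black lines are class medians, and the grey line and band are the median and interquartile range of all 21143 genes. No point is coloured in the first panel, 3 are red and 12 blue in the second, and 26 are red and 10 blue in the third.

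L10 had the largest rise of the large subunit genes from pSC12 to pSC24. L10 is a late-joining protein near the tRNA sites of the large subunit. Zm00001eb219490 (chr5:20383271-20386038, AGPv5) had 32.7, 27.7 and 32.2 FPKM in SC, 33.8, 40.3 and 30.7 in pSC12, 40.7, 46.6 and 58.8 in pSC18, then 74.4, 93.4 and 86.9 in pSC24. The pSC24 libraries lay above all others. It rose by a log2 fold change of 1.26 ± 0.16 (SE) from pSC12 (edgeR adjusted p = 0.00016) and of 0.79 ± 0.15 from pSC18 (adjusted p = 0.00506). The rise from pSC12 held under all 20 alternatives run and that from pSC18 under all but the mapped-share term.

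The second L10 gene, Zm00001eb049570 (chr1:253640205-253642954), had 98.8, 95 and 77.0 FPKM in pSC12, 96.7, 104 and 121 in pSC18, then 122, 157 and 149 in pSC24. It also rose from pSC12, by 0.64 ± 0.14 (adjusted p = 0.00588), and no pSC12 library reached the pSC24 range. From pSC18 its change was 0.40 ± 0.14 (adjusted p = 0.0768). The lower L10 gene therefore took a larger share of the pair, from 25.3 ± 3.29% in SC to 37.3 ± 0.53% in pSC24.

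L24, a protein at the bridge between the subunits that in Arabidopsis aids translation reinitiation, behaved likewise. Zm00001eb352180 (chr8:122123873-122127598) had 70.7, 73.4 and 65.8 FPKM in pSC12, 72.3, 80.5 and 86.2 in pSC18, then 97.1, 109 and 122 in pSC24. It rose by 0.62 ± 0.13 from pSC12 (adjusted p = 0.00427) and by 0.44 ± 0.13 from pSC18 (adjusted p = 0.038), the latter in 10 of 20 alternatives.

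L35a Zm00001eb310700 (chr7:100374626-100376423) had 146, 146 and 139 FPKM in pSC12, 191, 219 and 222 in pSC18, then 262, 195 and 227 in pSC24. Both later stages lay above pSC12, and they overlapped each other. It rose from pSC12 to pSC24 by 0.65 ± 0.14 (adjusted p = 0.00506) and was the highest ribosomal protein gene of pSC24.

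L40 is made as a fusion to ubiquitin that is cleaved off before the protein joins the ribosome. Its leading gene Zm00001eb095960 (chr2:169574372-169578004) had 47.6, 51.5 and 39.4 FPKM in pSC12, 48.3, 60.2 and 81.7 in pSC18, then 74.4, 78.7 and 98.7 in pSC24. It rose from pSC12 to pSC24 by 0.84 ± 0.20 (adjusted p = 0.00877), while the 81.7 FPKM of pSC18 replicate 3 lay within the pSC24 range. Other large subunit genes that rose from pSC12 to pSC24 had log2 fold changes of 0.41 (L7a) to 0.73 (L34) and included both L28 genes, 2 L32 genes, L14, L18a, L22 and L36a.

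Among the 2 large subunit genes that fell from pSC12 to pSC24, L5 binds the 5S ribosomal RNA. Its gene Zm00001eb002520 (chr1:7101389-7105705) had 25.3, 21.5 and 20.3 FPKM in pSC12, 16.5, 19.1 and 24.5 in pSC18, then 12.9, 13.3 and 12.5 in pSC24. The pSC24 libraries were the lowest of all 12, and the change from pSC12 was -0.81 ± 0.18 (adjusted p = 0.00554). The other was L13 Zm00001eb143000 (log2 fold change -0.59 ± 0.20, adjusted p = 0.0469), which overlaps a gene on the other strand and whose pSC12 and pSC24 libraries overlapped (29.9 to 44.6 and 22 to 32.6 FPKM). The library kit did not mark strand, so reads of such gene pairs cannot be told apart.

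L4, whose long loop lines the exit tunnel, passed in the test from pSC18. Zm00001eb301420 had 68.4, 70.7 and 84.3 FPKM in pSC18, then 58.9, 45.2 and 39.8 in pSC24 (log2 fold change -0.65 ± 0.17, adjusted p = 0.0273). Its pSC12 libraries, at 60.9, 59.0 and 41.2 FPKM, overlapped those of pSC24. Without pSC18 replicate 3 the change from pSC18 was -0.55 ± 0.19 (edgeR adjusted p = 0.0908).

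In the small subunit 10 genes rose and 8 fell from pSC12 to pSC24 (9.17% and 7.34%, against 12.1% and 10.5% of all genes). Both shares lay below those of all genes. S15a, a protein bound to the body of the small subunit, had the largest rise. Zm00001eb199800 (chr4:205208640-205210388) had 20.9, 17.9 and 18.1 FPKM in pSC12, 27.2, 23.2 and 28.2 in pSC18, then 34.3, 35 and 45.5 in pSC24. The 3 later stages did not overlap, and the rise from pSC12 to pSC24 was 0.99 ± 0.20 (adjusted p = 0.00359). With it this gene passed S15a Zm00001eb392950, the leading one in SC, which had 24.5 ± 3.83 FPKM in pSC12 and 25.8 ± 2.79 in pSC24.

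S20, a protein of the head of the small subunit, rose at the last step. Zm00001eb378000 (chr9:24535506-24537679) had 71.5, 81.8 and 89.6 FPKM in SC, 66.4, 76.7 and 64.1 in pSC12, 67.1, 81.4 and 81.8 in pSC18, then 108, 104 and 132 in pSC24. The pSC24 libraries exceeded the other 9, by 0.71 ± 0.14 over pSC12 (adjusted p = 0.00365) and 0.57 ± 0.14 over pSC18 (adjusted p = 0.0204). Its paralogue Zm00001eb398590 stayed near 20 FPKM, with 20.7 ± 1.61 in pSC12 and 20.4 ± 2.73 in pSC24.

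Of 3 S2 genes, the second in level rose and the leading one fell. Zm00001eb303080 (chr7:18997734-19000525) had 66.2, 71.8 and 62.3 FPKM in pSC12, 90.04, 86.5 and 99.7 in pSC18, then 102, 97.5 and 88.7 in pSC24, a rise of 0.51 ± 0.11 from pSC12 to pSC24 (adjusted p = 0.00458). The leading gene Zm00001eb212470 (chr5:3691320-3693275) had 157, 158 and 124 FPKM in pSC12, 152, 156 and 169 in pSC18, then 120, 111 and 89.2 in pSC24. It fell from pSC12 (log2 fold change -0.47 ± 0.14, adjusted p = 0.0278, kept in 10 of 20 alternatives) and from pSC18 (-0.59 ± 0.14, adjusted p = 0.0151). S2 was the only protein with a gene that rose and a gene that fell in this comparison, and the summed S2 level was 264 ± 32.1 FPKM in pSC12 and 242 ± 26.3 in pSC24.

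S10 lies near the entry of the mRNA channel, and 2 of its genes fell from pSC12 to pSC24. Zm00001eb140330 (chr3:148502787-148504992) had 21.7, 23.7 and 21.5 FPKM in SC, 31.2, 32.3 and 29.3 in pSC12, 21.1, 25.4 and 35.6 in pSC18, then 13.7, 14.6 and 14 in pSC24. Every pSC24 library was below every earlier one, with changes of -1.15 ± 0.18 from pSC12 (adjusted p = 0.000768) and -0.97 ± 0.18 from pSC18 (adjusted p = 0.00401). S10 Zm00001eb174410 fell between pSC12 and pSC24 as well (-0.62 ± 0.15, adjusted p = 0.00986) but was already at 26.1 to 29.8 FPKM in pSC18, below its 42.4 to 46.3 in pSC12. S10 Zm00001eb082850 went from 48.1 ± 6.24 to 65.3 ± 6.03 FPKM (0.42 ± 0.15, adjusted p = 0.0681) and overtook the other S10 genes.

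S4, an RNA-binding protein of the small subunit body, had the most genes, 13. Zm00001eb310790 (chr7:101722609-101726869) had 26.0, 34.4 and 45.7 FPKM in pSC12, 19.9, 21.6 and 20.1 in pSC18, then 14.9, 10.7 and 16.0 in pSC24, a log2 fold change of -1.37 ± 0.23 from pSC12 (adjusted p = 0.00128). Zm00001eb302860 (chr7:17159815-17161379) had 14.5, 13.9 and 16.8 FPKM in pSC12 and 4.85, 5.72 and 4.57 in pSC24 (-1.59 ± 0.38, adjusted p = 0.0098). Neither overlapped between these stages. The leading S4 gene, Zm00001eb063980, stayed level at 133 ± 8.78 and 135 ± 14.1 FPKM, so that its share of S4 went from 49.6 ± 6.25% to 59.8 ± 3.63%.

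SA is a small subunit protein related to the animal laminin receptor. Zm00001eb109330 (chr2:218289227-218291888) had 77.3, 71.3 and 54.1 FPKM in pSC12, 56.1, 68.7 and 73.2 in pSC18, then 48.2, 42.7 and 38.5 in pSC24. It fell from pSC12 (-0.67 ± 0.15, adjusted p = 0.00777) and from pSC18 (-0.63 ± 0.15, adjusted p = 0.0178). Without pSC18 replicate 3 the change from pSC18 was -0.55 ± 0.17 (edgeR adjusted p = 0.0626). A second SA gene, Zm00001eb002640, had 24.0, 26.6 and 40.2 FPKM in pSC18, then 17.2, 17.5 and 13.5 in pSC24 (-0.93 ± 0.20, adjusted p = 0.00997), and this call was also made without pSC18 replicate 3. The leading SA gene Zm00001eb402570 did not pass, at 95.3 ± 13.9 FPKM in pSC12, 116 ± 8.44 in pSC18 and 102 ± 12.0 in pSC24.

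S5 and S3a also fell. S5 contacts the exit site on the head, and its leading gene Zm00001eb334050 had 107, 123 and 143 FPKM in pSC18, then 92.1, 71.5 and 81.1 in pSC24 (-0.62 ± 0.14, adjusted p = 0.0122). Its fall from pSC12 was smaller (-0.43 ± 0.14, adjusted p = 0.0426) and held in only 7 of 20 alternatives. S3a lies on the platform, and Zm00001eb400820 went from 42.0 ± 9.96 FPKM in pSC12 to 26.8 ± 4.77 in pSC24 (-0.67 ± 0.17, adjusted p = 0.0138). The small subunit genes that rose, beside those above, were 2 of the 4 S12 genes, S9, S25, S26, S28 and S27a, with log2 fold changes of 0.40 to 0.97.

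Of the 10 stalk genes, 2 fell from pSC18 to pSC24 (20%, against 7.15% of all genes) and 1 rose from pSC12 to pSC24 (10%, against 12.1%). P0, the protein that anchors the stalk to the ribosome, had a leading gene (Zm00001eb261840, chr6:14803943-14806454) at 186, 213 and 190 FPKM in SC, 167, 162 and 135 in pSC12, 175, 166 and 230 in pSC18, then 130, 147 and 128 in pSC24. It fell from pSC18 (log2 fold change -0.51 ± 0.14, adjusted p = 0.0252), a call lost in 5 of the 12 fits that leave out 1 library, and the pSC12 and pSC24 libraries overlapped. The second P0 gene, Zm00001eb173180 (chr4:38145170-38147606), had 22.6, 18.4 and 19.1 FPKM in SC, 31.9, 30.6 and 28.5 in pSC12, 34.8, 33.7 and 48.1 in pSC18, then 27.2, 28.3 and 25.4 in pSC24. Its libraries did not overlap between SC and any later stage, and it too fell from pSC18 to pSC24 (-0.54 ± 0.15, adjusted p = 0.0308, lost in 7 of the 12 such fits). Without pSC18 replicate 3 that change was -0.37 ± 0.14 (edgeR adjusted p = 0.132).

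P1, P2 and P3 dimerise on P0. Among the later stages P2A Zm00001eb344440 alone of these 8 genes passed, with 21.4, 21.9 and 17.7 FPKM in pSC12 and 29.3, 27.3 and 29.2 in pSC24 (0.47 ± 0.15, adjusted p = 0.0352), and it overlaps 2 genes on the other strand. The other 7 had stage means between 5.30 and 61.7 FPKM. P2A Zm00001eb433350 led its protein at 54.4 to 61.4 FPKM, P1 Zm00001eb173790 stood at 50.5 to 61.7 and P1 Zm00001eb260880 at 21.5 to 31.7. P3 Zm00001eb226990 and Zm00001eb272850 were at 17.7 to 23.8 and 7.84 to 9.99 FPKM. P2A Zm00001eb066820 had 5.30 to 8.45 FPKM, and P2B Zm00001eb348240 had 28.1 ± 8.15 in SC and 14.3 ± 6.04 in pSC24 with overlapping libraries, and it was among the genes called lower in pSC24 than in SC.

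**Figure D4:**
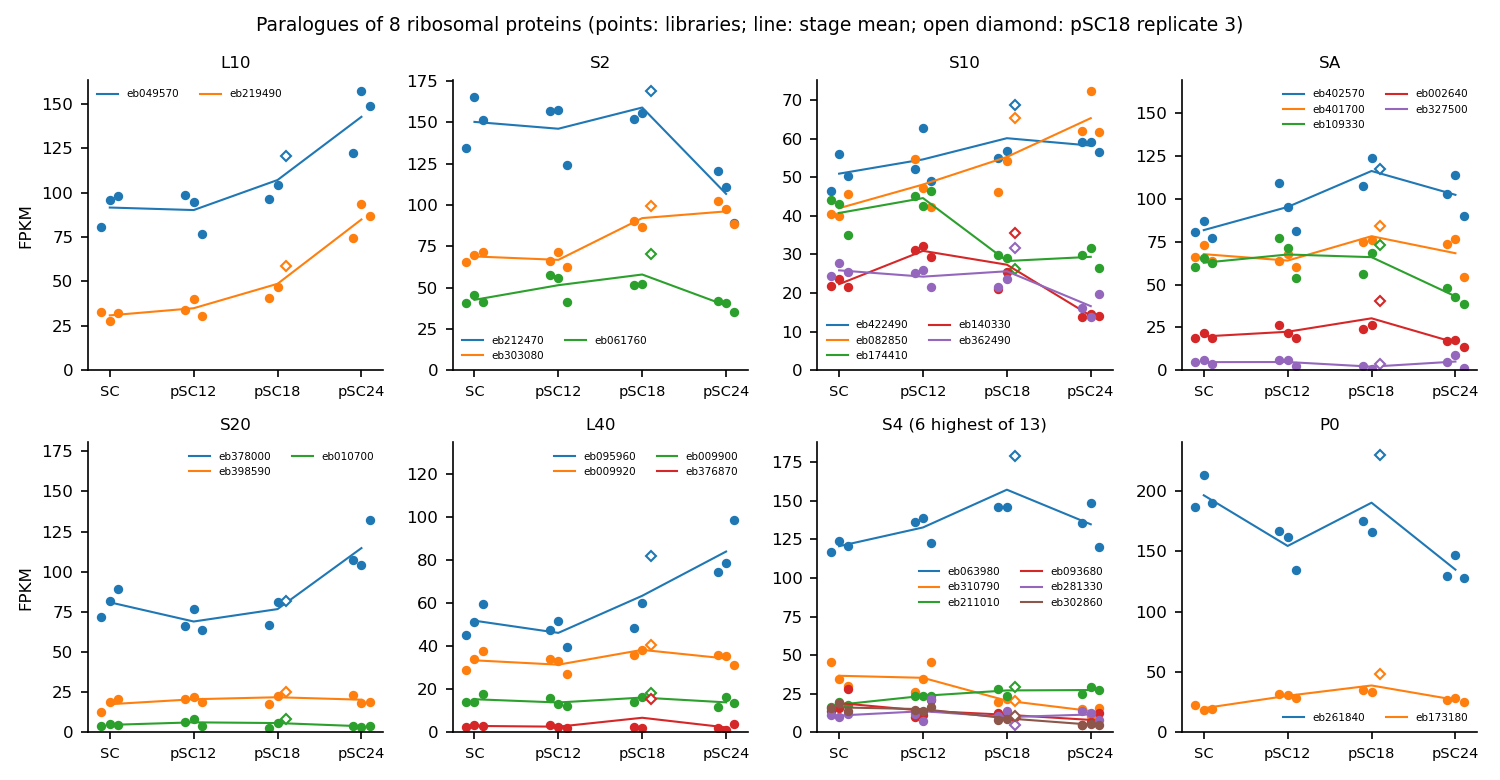
FPKM of the paralogues of 8 ribosomal proteins at the 4 stages (IDs without the shared prefix Zm00001). Points are libraries, lines join stage means, and the open diamond is replicate 3 of pSC18. Both L10 genes climb to pSC24, the leading S2 gene drops from 159 to 107 FPKM while the second holds at 92.1 and 96.1, and the lower S10 gene Zm00001eb140330 ends at 14.1 FPKM.

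Most proteins kept the same leading paralogue. Of 74 proteins with 2 or more genes, 66 had the same leading gene in SC and pSC24, and 8 changed (L21, S7, S10, S11, S13, S15a, S25 and S27). The leading gene held a median of 53.0% of its protein's summed FPKM in SC and 54.4% in pSC24. From pSC12 to pSC24 the leading share shifted by a median of 4.53 percentage points, by under 5 points in 41 proteins and by 10 points or more in 8.

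The largest shifts were 13.1 points in L40 and S27a, 12.8 in L32, 11.3 in S2 and 10.4 in S20. L40 Zm00001eb095960 went from 49.0 ± 2.10% to 62.2 ± 4.06% of its protein and the second gene, Zm00001eb009920, from 33.4 ± 0.50% to 25.7 ± 3.93%. In S27a, the other ubiquitin fusion, the leading share went the opposite way, as its leading gene Zm00001eb340580 (60.4, 52.6 and 38.3 FPKM in pSC12, 49.0, 46.3 and 42.5 in pSC24) went from 58.6 ± 2.41% to 45.5 ± 4.41% without passing the test (-0.16 ± 0.19, adjusted p = 0.619). Its second gene Zm00001eb282450 rose from 17.1, 17.7 and 16.6 to 26.8, 25.2 and 30.8 FPKM (0.67 ± 0.16, adjusted p = 0.00844).

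L32 had the same pattern as S27a. Its leading gene Zm00001eb102250 had 87.3, 87.0 and 59.5 FPKM in pSC12 and 62.5, 67.5 and 62.7 in pSC24 (-0.30 ± 0.16, adjusted p = 0.214), and went from 50.2 ± 2.96% to 37.5 ± 2.27%. The second gene Zm00001eb317450 rose from 43.2, 39.3 and 35.2 to 64.6, 51.9 and 65.7 FPKM (0.61 ± 0.15, adjusted p = 0.0107). The third, Zm00001eb174930, rose from 23.6 ± 1.73 to 35.1 ± 2.30 FPKM (0.55 ± 0.14, adjusted p = 0.0158).

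Summed over paralogues, the proteins were more even than the single genes. In SC the sums ran from 6.27 FPKM for S30 to 274 for L17 with a median of 103, and 57 of the 78 lay within 2-fold of that median. The log2 ratio of pSC24 to pSC12 sums ran from -0.26 for S4 to 0.86 for L10 with a median of 0.19, and 58 of the 78 were above 0. It exceeded 0.5 in size for 12 proteins, all of them higher in pSC24. L10 went from 125 ± 15.2 to 228 ± 27.9 FPKM, L35a from 195 ± 11.5 to 288 ± 43.2 and S20 from 96.0 ± 10.3 to 139 ± 14.8, with libraries that did not overlap. S4 went from 269 ± 18.2 to 225 ± 10.5 FPKM, also without overlap. These ratios have no all-gene value beside them, and they include pSC12 replicate 3, whose sum of 7767 FPKM was the lowest of the 12 libraries. For single genes the median log2 fold change from pSC12 to pSC24 was 0.11. It was 0.04 without pSC12 replicate 3 and 0.18 without pSC12 replicate 2.

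**Figure D5:**
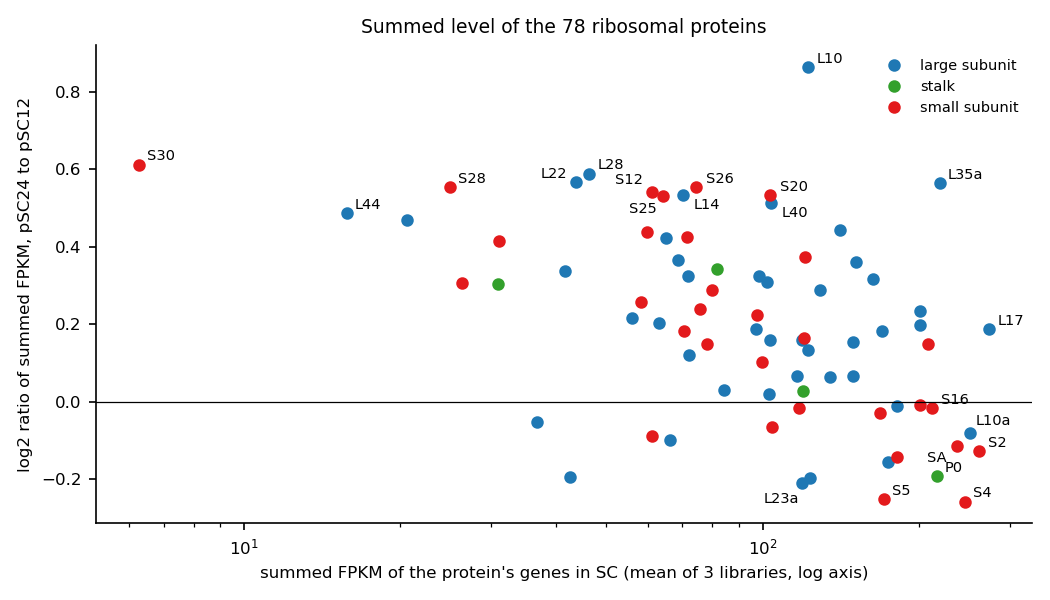
Log2 ratio of summed FPKM in pSC24 to pSC12 against summed FPKM in SC (log axis) for the 78 proteins, coloured by class. Each point is the mean of 3 libraries per stage, with no error shown. L10 is highest at 0.86, S4 lowest at -0.26, and 58 points are above 0.

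Against SC the values are a description, because the SC level chose the members. From SC to pSC12, 2 of the 260 were called higher (background 2.95% of all genes) and 1 lower (2.64%), and none without any 1 SC library or pSC12 replicate 1 or 2. From SC to pSC18, 14 were called higher (4.71%) and 2 lower (4.1%). Without pSC18 replicate 3 these were 2 and 0 with a median of 0.13, and 2 to 4 and 0 were also called without pSC18 replicate 2 or any 1 SC library. From SC to pSC24, 33 were called higher (14.4%) and 14 lower (12.9%), with 17 higher without SC replicate 1, 20 without pSC24 replicate 2 and 8 or 9 lower without any 1 SC library. The counts without a library have no all-gene share beside them. The medians were -0.03, 0.22 and 0.13, against -0.01, 0.05 and 0.05 over all genes. Scaled by library totals the first of them was 0.26, against 0.27 over all genes. Its sign changed, but it lay below the all-gene median under both scalings.

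L3, a protein close to the peptidyl transferase centre, had a gene that was higher than in SC at each later stage. Zm00001eb082960 had 44.6, 51 and 41.7 FPKM in SC, 62.9, 67.5 and 56.5 in pSC12, 76.4, 78.8 and 79.9 in pSC18, then 82.0, 84.3 and 69.4 in pSC24. L29, a small and basic large subunit protein with a single member here, had the opposite course. Zm00001eb130220 had 38.5, 38.7 and 50.3 FPKM in SC, 24.8, 24.7 and 22.6 in pSC12, 23.4, 28.4 and 29.1 in pSC18, then 21.9, 18.5 and 22.6 in pSC24, with every SC library above all later ones. L38 Zm00001eb106530 had 35.2 ± 9.66 FPKM in SC and 22.2 ± 1.76 in pSC12, and was back at 33.4 ± 7.93 in pSC18.

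Further members at the extremes against SC follow by their values. L15 Zm00001eb321600 had 10.7 ± 1.06 FPKM in SC and 15.7 ± 2.26 in pSC12, and L4 Zm00001eb060730 had 9.93 ± 1.76 in SC and 20.01 ± 6.91 in pSC18, the latter with 27.8 in replicate 3. S9 Zm00001eb109830 had 5.53 ± 1.18 FPKM in SC and 6.95, 9.07 and 14.1 in pSC18. S4 Zm00001eb093680 had 13.6, 15.5 and 27.9 FPKM in SC and 4.88, 6.90 and 12.5 in pSC24, a wide spread in both. Another S4 gene, Zm00001eb211010, had means of 17.9 FPKM in SC and 27.4 in pSC24.

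Single genes that set pSC18 replicate 3 furthest from its stage were of low level. L40 Zm00001eb376870 had 2.70, 2.17 and 15.5 FPKM in the 3 pSC18 libraries, L12 Zm00001eb430180 (a protein at the stalk base) 0.763, 0.829 and 4.85, and S8 Zm00001eb205700 (a small subunit protein) 5.39, 8.40 and 19.9. In the other direction S4 Zm00001eb281330 had 10.9, 13.7 and 5.10 FPKM. S4 Zm00001eb093680 (12.8, 12.4 and 9.13 FPKM) and L37 Zm00001eb281060, a zinc-binding large subunit protein (12.5, 8.47 and 7.63), were also low in that library. None of these passed a test between later stages.

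The spread between libraries was widest in pSC18. The median coefficient of variation of the 261 genes was 11.7%, 13.3%, 15.8% and 11.7% at the stages in order. In pSC12 replicate 3 the set was low: 81 of the 261 genes (31%) had their lowest value there, and its sum of 7767 FPKM was the lowest of the 12.

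The members share short gene models, with a median exon length of 1021 bases against 1939 for protein-coding rows with at least 1 FPKM in SC. They lie on all 10 chromosomes, from 12 on chromosome 10 to 38 on chromosome 4. Of the 261, 18 overlap another gene, each on the other strand only.

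Among the 12 other rows, an L18a-like gene rose more than any structural member. Zm00001eb343820 had 16.6, 13.9 and 17.4 FPKM in pSC12, 19.7, 23.7 and 17.9 in pSC18, then 40.8, 54.6 and 58.6 in pSC24. It rose by 1.67 ± 0.21 from pSC12 (adjusted p = 0.000162) and 1.32 ± 0.20 from pSC18 (adjusted p = 0.00144). The structural L18a gene next to it on chromosome 8, Zm00001eb343830, rose from 38.4, 36.5 and 28.1 to 49.4, 44.7 and 56.4 FPKM (0.53 ± 0.15, adjusted p = 0.0214). NMD3 Zm00001eb390490, which carries the large subunit out of the nucleus, fell from 11.9, 9.49 and 8.28 to 7.29, 5.33 and 6.15 FPKM (-0.68 ± 0.21, adjusted p = 0.0348).

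Lists of related genes, taken by description, give the surroundings of the ribosomal proteins. Of all genes 7.01% rose and 7.15% fell from pSC18 to pSC24, and 12.1% rose and 10.5% fell from pSC12. Of 81 tested ribosome biogenesis genes, 1 rose and 11 fell from pSC18 to pSC24 (median -0.33), and 3 rose and 7 fell from pSC12 (median -0.20). Of those that fell, BRX1 (Zm00001eb245760, -1.89 ± 0.31 from pSC18, adjusted p = 0.00211) acts in large subunit assembly and TSR1 (Zm00001eb266050, -1.45 ± 0.26, adjusted p = 0.00314) in late small subunit assembly. Fibrillarin (Zm00001eb191090), the methyltransferase of ribosomal RNA, rose from pSC12 (1.0 ± 0.29, adjusted p = 0.0243).

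Initiation factors, which bring the subunits to the mRNA, were called lower by edgeR in 9 of 63 from pSC18 to pSC24 and in 12 from pSC12, and higher in 0 (1 and 2 at an unadjusted p under 0.05, and 1 and 1 with DESeq2). Among them were eIF4A Zm00001eb232200 (-0.81 ± 0.14 from pSC12, adjusted p = 0.00149) and eIFiso4G Zm00001eb078350 (-1.05 ± 0.17, adjusted p = 0.000849). Of 7 elongation factor genes, EF1-gamma Zm00001eb385150 fell from pSC18 (-0.77 ± 0.20, adjusted p = 0.0211) and EF1-beta Zm00001eb329960 rose from pSC12 (0.33 ± 0.11, adjusted p = 0.0482). RNA polymerases I and III, which make ribosomal and small RNAs, had 1 of 11 lower from pSC18 and 2 from pSC12. Among 91 organelle ribosome rows, which include an assembly factor and a respiratory chain subunit, 1 rose and 8 fell from pSC18, and 5 rose and 10 fell from pSC12. For these lists too, the all-gene shares are 7.01% and 7.15% from pSC18, and 12.1% and 10.5% from pSC12. In the list of translation control, TCTP (Zm00001eb229550), a protein whose mRNA is regulated like that of ribosomal proteins in animals, rose from both (0.51 ± 0.14 from pSC18, adjusted p = 0.0285, and 0.63 ± 0.14 from pSC12, adjusted p = 0.00579). The other gene that rose in both, MFP1 attachment factor 1 (Zm00001eb108360), is a nuclear envelope protein matched only by the letters of its abbreviation.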

How the data were processed

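RNA of 12 libraries of pooled maize synergid cells (4 stages, 3 replicates) was amplified and sequenced without strand information. Per the labels and the study's methods, the authors trimmed reads with cutadapt 1.15, aligned them to the AGPv5 assembly with HISAT2 2.0.5 and counted them with featureCounts 1.5.0-p3. How reads with several matches were counted is not given in the sources used here. The authors deposited counts per gene and FPKM, and the deposited FPKM are counts divided by gene length and by 1 library size per library, which was 0.881 to 1.111 times the total of counts. Rows without an annotated gene numbered 1788 and held 1.21 to 1.56% of counts. There was 1 empty line in each table, and 0 per-sample columns were left unused.

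Counts were fitted with edgeR 4.0.16 (quasi-likelihood, TMM, filterByExpr by stage, all 12 libraries, Benjamini-Hochberg adjustment within each of 6 comparisons) in R 4.3.3, with limma 3.58.1, and DESeq2 1.42.0 as an alternative. The fit was tested on simulated data. Tables were made in Python 3.11.15 (pandas 2.3.3, numpy 2.4.6) and drawn by matplotlib 3.10.9. Levels and sums are FPKM, and differences between libraries are on log2(FPKM + 1), with a pseudocount of 1. The members and lists were chosen with earlier results of these data known. Genes named were the 5 highest in SC, for each tested comparison up to 5 per direction by p among calls without overlap, the 3 extremes against SC at 10 FPKM or more, all acidic proteins, the leading paralogues of the 5 proteins whose leading share moved most, the rows nearest the level and those farthest in pSC18 replicate 3; further members were named after their values were seen. No promoter or protein sequence was analysed here. Alternatives were another scaling, filter and tool, a replicate block, a mapped-share term and leaving out each library.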

Additional observations from a re-analysis of the deposited data

How the results depend on the processing

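With 3 libraries per stage and a common dispersion of 0.239, changes near the size of the spread are not resolved, and the number of calls moved with several settings. DESeq2 called 3 members higher and 1 lower from pSC12 to pSC18. From pSC18 to pSC24 it made 23 calls, 6 of them higher and the rest lower. From pSC12 to pSC24 it made 55, of which 42 were higher and the rest lower. Between SC and pSC12 it found 6 members up and 3 down. Between SC and pSC18 it made 33 calls, 30 of them higher and the rest lower. Apart from pSC12 to pSC18, these counts have no all-gene share beside them. The 6-library counts that follow have none either, so neither can be set against a background. With edgeR on the 6 libraries compared, 2 were lower from pSC18 to pSC24, 6 lower from pSC12 to pSC24, 4 higher from SC to pSC12, and 23 higher and 1 lower from SC to pSC18. With the mapped-share term 0 passed from pSC18 to pSC24 and from SC to pSC12, 0 were lower in pSC18 than in SC, and 4 were higher and 2 lower in pSC24 than in SC. Scaling by library totals gave 25 higher and 0 lower from SC to pSC12 (median 0.26), 57 and 0 to pSC18 (median 0.43) and 75 and 4 to pSC24 (median 0.36) (of all genes 9.61% higher and 1.3% lower, 9.29% and 2.34%, and 20.4% and 9.14%, with all-gene medians of 0.27, 0.25 and 0.28). As a share of counts the set had log2 ratios to SC of 0.32, 0.43 and 0.37, and as summed FPKM of -0.01, 0.20 and 0.14. These measures differ in the division by gene length as well as in scaling. Without a filter on low counts 1 was higher and 0 lower from SC to pSC12 and 1 lower to pSC18, and TMM without the 200 highest genes of SC gave 1 higher from SC to pSC12. The counts with the mapped-share term against SC, without a filter and without the 200 highest genes have no all-gene share beside them. The cause of these differences was not tested.

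Deviations of same-numbered libraries from their stage means were weakly correlated (18 pairs, correlations of -0.058 to 0.0911). The highest were replicates 2 (0.0911) and 3 (0.0753) of pSC18 and pSC24. Whether a number marks a shared plant or day is not given in the sources used here, and these correlations cannot decide it. With the replicate number as a block, 7 were lower from pSC18 to pSC24. From SC to pSC12 1 was higher and 0 lower, and from SC to pSC18 7 were higher and 0 lower. The counts with this block have no all-gene share beside them, so they cannot be set against a background.

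Leaving out 1 library at a time gave 0 to 0 calls from pSC12 to pSC18 (medians 0.12 to 0.31), 1 to 4 higher and 4 to 12 lower from pSC18 to pSC24 (medians -0.13 to 0.02), and 14 to 33 higher and 6 to 14 lower from pSC12 to pSC24 (medians 0.04 to 0.18). Against SC it gave 0 to 3 higher and 0 to 1 lower in pSC12 (medians -0.08 to 0.06), 2 to 18 and 0 to 2 in pSC18 (medians 0.13 to 0.29) and 17 to 39 and 8 to 15 in pSC24 (medians 0.07 to 0.18). Apart from pSC18 to pSC24 without pSC18 replicate 3, these counts have no all-gene share beside them.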
